A study of Homo sapiens with 2 samples.

Results

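Transcripts of genes that repair DNA crosslinks and broken chromosomes by homologous recombination were compared between cisplatin-resistant and parental SBC5 cells. SBC5 is a long-established cell line from small cell lung cancer, and the resistant derivative had been taken through cisplatin at 1, 2, 4 and 20 µg/ml. Polyadenylated RNA of both forms was sequenced, with 1 library per group. With no replicates, no value has a replicate check, no test was possible, and every difference describes these 2 libraries. The labels name no engineered allele, give the same serum-supplemented medium for both forms, and do not say whether the resistant cells were 1 clone or still in the drug when RNA was taken.

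The genes were chosen by name from a list of 42, and 40 had at least 1 locus in the table of 12494 names. XRCC2 and FAN1 were not analysed here. FPKM, a fragment number scaled to locus length and library size, was at least 1 in either library for 39 of the 40, among 12405 genes compared in all. The 40 genes filled 56 loci: 32 genes had 1 locus and 8 had several. The number of fragments behind a value is unknown. FPKM summed to 1081047 in the resistant and 1019555 in the parental library.

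Cisplatin joins bases within and between DNA strands. At a crosslink between strands the Fanconi anaemia (FA) core complex, with the ubiquitin-conjugating enzyme UBE2T, adds ubiquitin to the FANCD2 and FANCI pair, nucleases then cut around the lesion, translesion polymerases copy past it, and homologous recombination with BRCA1 and BRCA2 mends the break that is left. Cells that lack FA or BRCA genes are known for their sensitivity to platinum drugs.

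Most of these transcripts differed little between the libraries, and after MRE11A, described below, FANCF and BARD1 had the highest ratios. These 3 were the members at least 1.5-fold higher (7.69% of 39), where 7.59% of all genes compared were. BARD1 lay just past the range of genes of like level given further on, and FANCF inside it. FANCF, a small core complex subunit that links other subunits, had 20.0 FPKM in resistant and 10.1 FPKM in parental cells (1.98-fold, log2 ratio 0.92 after adding 1 to each FPKM, as in every log2 ratio given here). BARD1, the obligate partner of BRCA1 in a ubiquitin ligase, had 29.4 FPKM in resistant and 16.1 FPKM in parental cells (1.83-fold, 0.83). BRCA1 itself was lower, with 20.3 FPKM in resistant and 27.9 FPKM in parental cells (-0.44), and RAD51B, a subunit of a recombination complex, was lowest of all with 6.90 and 10.4 FPKM (-0.53). MRE11A had the highest log2 ratio of the list, but in a locus to which no strand could be assigned, as described further on.

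The start regions of the members that lay furthest apart follow, 300 bases each with 250 before and 50 after the RefSeq gene start (GRCh38.p14), written 5′ to 3′ on the strand of the gene. FANCF (chr11:22625774-22626073, minus strand) and BARD1 (chr2:214809634-214809933, minus strand) were the highest, and RAD51C (chr17:58692323-58692622, plus strand) and UBE2T (chr1:202341887-202342186, minus strand) the lowest, among members whose RefSeq start lay within 100 bases of a principal transcript start in GENCODE release 29. Ratios set beside the start regions are those of the locus on the annotated strand. MRE11A thus counts there with -0.00083, and not with the 2.42 of its strandless locus. Capitals mark CCAAT boxes and TTTGAA, a form of the cell cycle element CHR.
FANCF: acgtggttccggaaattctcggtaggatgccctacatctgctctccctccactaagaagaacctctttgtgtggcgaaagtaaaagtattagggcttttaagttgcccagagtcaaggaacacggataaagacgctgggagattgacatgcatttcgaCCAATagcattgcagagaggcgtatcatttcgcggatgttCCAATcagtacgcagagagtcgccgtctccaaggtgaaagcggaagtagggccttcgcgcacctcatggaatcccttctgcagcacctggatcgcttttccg
BARD1: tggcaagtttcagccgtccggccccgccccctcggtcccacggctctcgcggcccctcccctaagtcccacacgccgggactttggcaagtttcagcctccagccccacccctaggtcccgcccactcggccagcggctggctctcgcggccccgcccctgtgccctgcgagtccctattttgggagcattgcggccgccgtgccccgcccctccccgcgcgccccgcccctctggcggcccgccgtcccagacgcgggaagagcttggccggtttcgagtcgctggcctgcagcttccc
RAD51C: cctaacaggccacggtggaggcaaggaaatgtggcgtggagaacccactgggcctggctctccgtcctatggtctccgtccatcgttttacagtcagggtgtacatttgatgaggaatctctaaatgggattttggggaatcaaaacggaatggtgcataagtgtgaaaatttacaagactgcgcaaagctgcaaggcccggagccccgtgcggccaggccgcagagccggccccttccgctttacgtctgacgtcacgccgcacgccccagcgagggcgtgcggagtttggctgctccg
UBE2T: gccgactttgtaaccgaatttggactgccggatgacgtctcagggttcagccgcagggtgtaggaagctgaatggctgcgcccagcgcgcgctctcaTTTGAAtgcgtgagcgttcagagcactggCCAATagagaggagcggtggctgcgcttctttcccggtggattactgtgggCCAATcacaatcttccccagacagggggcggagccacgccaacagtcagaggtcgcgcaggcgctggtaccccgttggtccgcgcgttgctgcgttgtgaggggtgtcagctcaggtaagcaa
The FANCF and UBE2T windows each held 2 CCAAT boxes, UBE2T also held 1 CHR element, and the BARD1 and RAD51C windows held neither. CCAAT was read on both strands. CHR was searched as TTTGAA or TTCGAA and the E2F site as TTTCCCGC, TTTCGCGC, TTTGCCGC or TTTGGCGC, also on both strands, and none of these motifs overlapped another in the 4 windows. A window was found for 35 of the 39 members, and 30 of these met the limit of 100 bases, from which BRCA1, RAD51B, RAD51D, POLI and POLK dropped out. Among the 30, 11 (36.7%) held a CCAAT box, against 37.0% of 9362 windows of genes compared. A CHR element stood in 4 (13.3%, against 10.5%) and an E2F site in 3, FANCA, FANCC and FANCD2 (10.0%, against 5.35%). Over all 27305 windows the shares were 35.7%, 16.6% and 3.33%. Log2 ratios of the 3 members with an E2F site ran from -0.09 to 0.04, and those of the 11 with a CCAAT box from -0.35 to 0.92, so that both higher and lower members carried a CCAAT box. The 4 with a CHR element were all below 0, from -0.35 to -0.09, and the 26 without one ran from -0.37 to 0.92. At strand-assigned loci 69.2% of the 39 members and 55.9% of all genes compared were below 0. Whether the element goes with lower ratios was not tested. CpG pairs numbered 18 for FANCF, 32 for BARD1, 22 for RAD51C and 24 for UBE2T, where the median was 27.5 for the 30 members and 27 for genes compared.

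Levels spanned a wide range that was alike in both libraries. The median member had 15.2 FPKM in resistant and 15.2 FPKM in parental cells, near the 14.3 and 14.5 FPKM of all genes compared. Across the 39 members Spearman's rho between the libraries was 0.89, a description of genes that share the libraries. FANCI was the most abundant in both, at 140 FPKM in resistant and 167 FPKM in parental cells, followed by UBE2T (129 and 164 FPKM) and MAD2L2 (111 and 106 FPKM). FANCB was the least abundant that was compared, at 2.82 and 3.22 FPKM, with POLQ next at 3.69 and 4.10 FPKM. Between these ends, 23 members in resistant and 25 in parental cells had 10 to 30 FPKM, and with 1 library per group the order of neighbours has no replicate check.

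**Figure D1:**
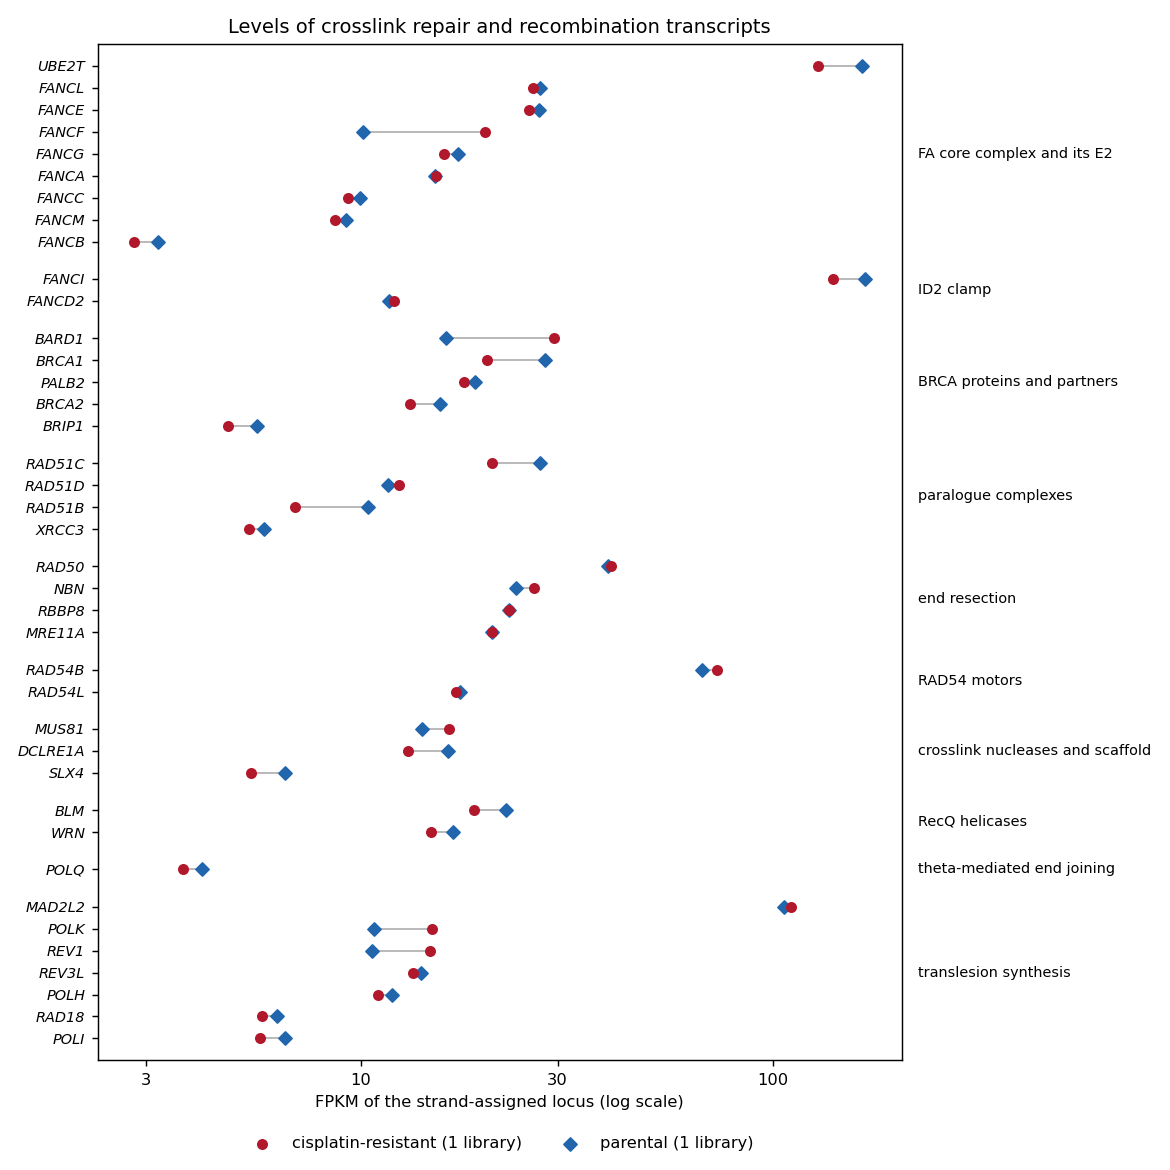
FPKM on a log axis for 39 members in the resistant (circles) and the parental library (diamonds), at the locus on the annotated strand, grouped by role. FANCF and BARD1 show the widest gaps to the right, and RAD51B and BRCA1 wide gaps to the left, while FANCI, UBE2T and MAD2L2 lie above 100 FPKM in both libraries.

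By size, 1 of 39 members, MRE11A, was at least 2-fold higher, where 3.28% of all genes compared were, and 0 were at least 2-fold lower, where 2.7% were. At 1.5-fold, 3 members (7.69%) were higher, against 7.59% of all genes, and 0 were lower, against 6.59%. The higher share is thus near that of all genes with these settings. Within 1.25-fold in either direction lay 30 members (76.9%), where 69.3% of all genes did. Log2 ratios were below 0 for 26 members (66.7%), where 55.6% of all genes were. The median was -0.09 for members and -0.04 for all genes, and the middle of the distribution, between quartiles, ran from -0.19 to 0.05 for members and from -0.22 to 0.16 for all genes. The typical distance from 0, the median absolute log2 ratio, was 0.14 for members and 0.19 for all genes. These counts describe a list and do not set it apart from other genes.

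Each member was also set beside genes of like level, the genes in the same of 20 equal bins of mean FPKM. BARD1 lay at percentile 98.0 of 620 such genes and just past their 97.5th percentile of 0.80. FANCF lay at percentile 96.5, inside an upper limit of 1.13. Outside these ranges were 2 of 39 members (5.13%), BARD1 and the strandless MRE11A locus, where 5.16% of all genes lay outside by construction.

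**Figure D2:**
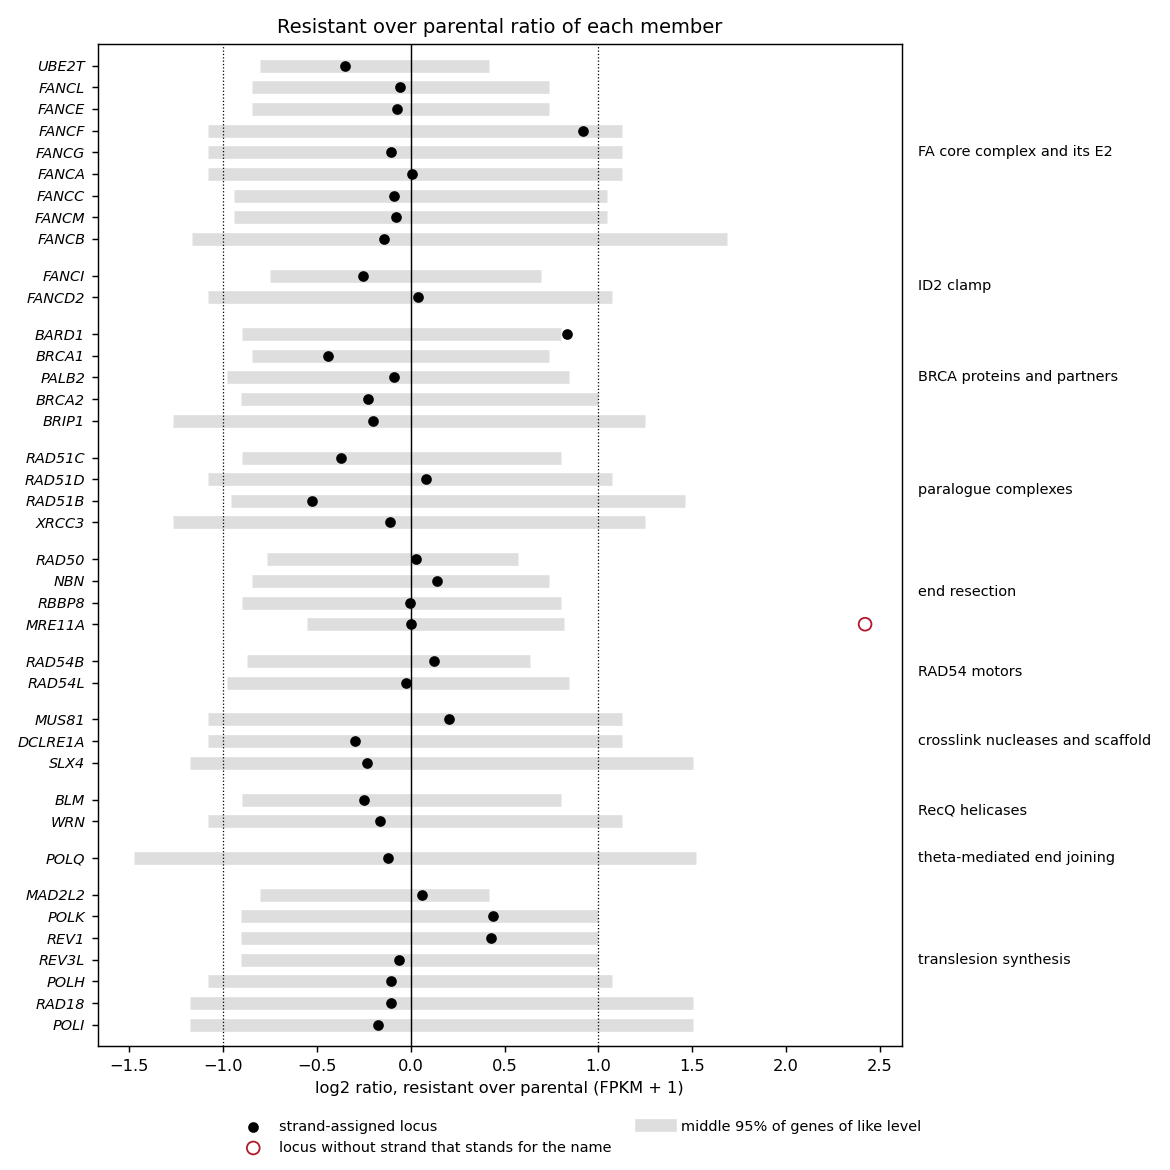
Log2 ratio, resistant over parental, of each member, with dotted lines at 2-fold; the grey bar spans the middle 95% of genes of like level to the locus that stands for the name. Of the strand-assigned loci BARD1 alone lies past its bar, FANCF is close to its upper end, and MRE11A lies at 0 with the locus without strand (open circle) at 2.42.

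In the FA core complex, 7 of 9 members including UBE2T were below 0 and the median was -0.08. Counts below 0 in this and the following groups stand beside 55.6% of all genes below 0 and their median of -0.04. FANCA, the subunit most often mutated in Fanconi anaemia, had 15.2 FPKM in both libraries (log2 ratio 0.00486). FANCG, its direct partner, had 15.9 FPKM in resistant and 17.2 FPKM in parental cells (-0.10). FANCL, the ubiquitin ligase subunit, had 26.1 and 27.2 FPKM (-0.06), and FANCB, which binds FANCL, had the 2.82 and 3.22 FPKM given above (-0.14). Levels of these subunits were close in the libraries, and FANCF was the 1 subunit with a log2 ratio above that of FANCA. FANCE, which contacts FANCD2, had 25.6 FPKM in resistant and 27.0 FPKM in parental cells (-0.07). FANCC, which binds FANCE and FANCF, had 9.32 and 9.96 FPKM (-0.09). FANCM, the DNA translocase that anchors the complex, had 8.66 and 9.20 FPKM (-0.08). UBE2T, the conjugating enzyme paired with FANCL, was the lowest of the group at 129 FPKM in resistant and 164 FPKM in parental cells (-0.35). The ratio of UBE2T to FANCL FPKM was 4.93 in resistant and 6.04 in parental cells.

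Transcripts of the 2 proteins that receive ubiquitin differed in level. FANCI had the 140 FPKM in resistant and 167 FPKM in parental cells given above (-0.25). FANCD2 had 12.0 FPKM in resistant and 11.7 FPKM in parental cells (0.04). FANCD2 thus stood at 0.0856 of the FANCI level in resistant and at 0.0698 in parental cells.

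Nucleases and their scaffold lay within 1.25-fold. SLX4, the scaffold that gathers nucleases, had 5.41 FPKM in resistant and 6.53 FPKM in parental cells (-0.23). MUS81, the catalytic subunit of a nuclease for branched DNA, had 16.4 and 14.1 FPKM (0.21), and DCLRE1A (SNM1A), an exonuclease that can digest past a crosslink, had 13.0 and 16.2 FPKM (-0.30). EME1, the partner of MUS81, was listed only in a locus without strand, under 1 FPKM at 0.800 in resistant and 0.438 in parental cells, and was not compared.

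Of the BRCA group, 4 of 5 members were below 0 and BARD1 was above. BRCA2, a mediator of recombination, had 13.2 FPKM in resistant and 15.6 FPKM in parental cells (-0.23). PALB2, which joins BRCA1 to BRCA2, had 17.8 and 19.0 FPKM (-0.09), and BRIP1, a helicase that binds BRCA1, had 4.75 and 5.59 FPKM (-0.20). BARD1 and BRCA1 differed in opposite directions: the ratio of BARD1 to BRCA1 FPKM was 1.45 in resistant and 0.575 in parental cells, so that the order of the partners was reversed. The ratio of BRCA2 to PALB2 was 0.741 and 0.822.

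Of the 4 members with a locus in the paralogue complexes, which assist strand exchange, 3 were below 0 and the median was -0.24. RAD51C, part of both paralogue complexes, had 20.8 FPKM in resistant and 27.2 FPKM in parental cells (-0.37), next to RAD51B at -0.53. XRCC3, the partner of RAD51C in the smaller complex, had 5.33 and 5.83 FPKM (-0.11). RAD51D had 12.4 FPKM in resistant and 11.6 FPKM in parental cells (0.08), in a locus joined with RFFL whose reads cannot be told apart. A separate entry that also bears the RFFL name, RAD51L3-RFFL, had 3.64 FPKM in resistant and 1.33 FPKM in parental cells (0.99). It was not counted among the loci of RAD51D.

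End resection, which trims a break to single-stranded DNA, was nearly level. RAD50, the structural subunit of the MRE11 complex, had 40.5 FPKM in resistant and 39.7 FPKM in parental cells (0.03). NBN, its signalling subunit, had 26.3 and 23.8 FPKM (0.14), and RBBP8 (CtIP), which stimulates the nuclease, had 22.8 and 22.9 FPKM (-0.00413). MRE11A, the nuclease (MRE11 in GENCODE), had 20.8 FPKM in both libraries in its strand-assigned locus. Among motors and helicases of recombination, RAD54L had 17.0 FPKM in resistant and 17.4 FPKM in parental cells (-0.03), BLM, which dissolves joint molecules, had 18.8 and 22.4 FPKM (-0.25) and WRN had 14.8 and 16.7 FPKM (-0.16). RAD54B was listed jointly with FSBP, a gene within it, at 73.3 and 67.1 FPKM (0.13), a level that cannot be given to either gene. POLQ, the polymerase that joins ends at short homologies, had a log2 ratio of -0.12.

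Translesion synthesis held the next highest ratios after BARD1. POLK, a polymerase that extends from damaged bases, had 14.9 FPKM in resistant and 10.7 FPKM in parental cells (1.39-fold, 0.44). REV1, the scaffold to which other translesion polymerases bind, had 14.7 FPKM in resistant and 10.6 FPKM in parental cells (1.38-fold, 0.43). They lay at percentiles 91.5 and 91.1 of 621 genes of like level. The other 5 members were closer to 0. REV3L, the catalytic subunit of polymerase zeta, had 13.4 FPKM in resistant and 14.0 FPKM in parental cells (-0.06), and its partner MAD2L2 (REV7) had a ratio of 0.06. POLH, which copies past intrastrand platinum adducts, had 11.0 and 11.9 FPKM (-0.11), POLI had 5.68 and 6.53 FPKM (-0.17), and RAD18, the ligase that marks PCNA for bypass, had 5.76 and 6.27 FPKM (-0.11).

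Several members were listed in more than 1 locus, and several of the additional loci had ratios unlike those of the main ones. The order of the loci in the table placed 39 of the 56 loci, 1 for each member compared, on the annotated strand of their gene. Of the other 17, 16 had no assigned strand and 1, under the name RAD51B, lay on the opposite strand. The largest ratio of all 56 was in a strandless MRE11A locus, with 85.4 FPKM in resistant and 15.1 FPKM in parental cells (5.65-fold, log2 ratio 2.42). The other 4 strandless MRE11A loci had 2.53 to 7.49 FPKM in resistant and 1.90 to 3.76 FPKM in parental cells, with log2 ratios of 0.14 to 0.84. FANCG had a strandless locus with 10.4 FPKM in resistant and 3.48 FPKM in parental cells (1.35), where its main locus had -0.10. A strandless BLM locus had 2.48 FPKM in resistant and 0.453 FPKM in parental cells (1.26), where the main locus had -0.25. Those of FANCA, FANCB, FANCD2 and XRCC3 differed by less than 1.5-fold between the libraries, and both minor RAD51B loci were lower in resistant cells (-0.74 and -0.79), as was the main one.

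In 17 of the 56 loci the ratio of the FPKM values, divided by 0.996, could be written as 1 whole number over another. Neither number was above 50, and the relative tolerance was 1.2e-05. The factor of 0.996, taken as the worth of 1 read in resistant over parental cells, was fitted to give the most whole-number matches over all loci. With 100 wrong factors the mean was 0.790 of 56, which does not check the factor, since the fit favoured it beforehand. Among all 19098 loci 6686 (35.0%) had such a match, so the members' share was no higher than the general one. The strandless MRE11A locus matched 17 fragments in resistant to 3 in parental cells. If those were the counts, the exact Clopper-Pearson 95% interval of the ratio would be 1.63 to 30.1, covering counting error only; any common multiple of both numbers gives the same ratio. The strandless BLM locus matched 11 to 2 (1.20 to 50.9) in the same way, and the EME1 locus 11 to 6 (0.619 to 6.02), an interval that spans 1. Loci of FANCC (46 to 49), XRCC3 (45 to 49) and POLH (25 to 27) were the strand-assigned ones with such a match. FANCF, BARD1, BRCA1, RAD51B, POLK and REV1 matched no such pair in their main loci, and their depth is unknown.

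**Figure D3:**
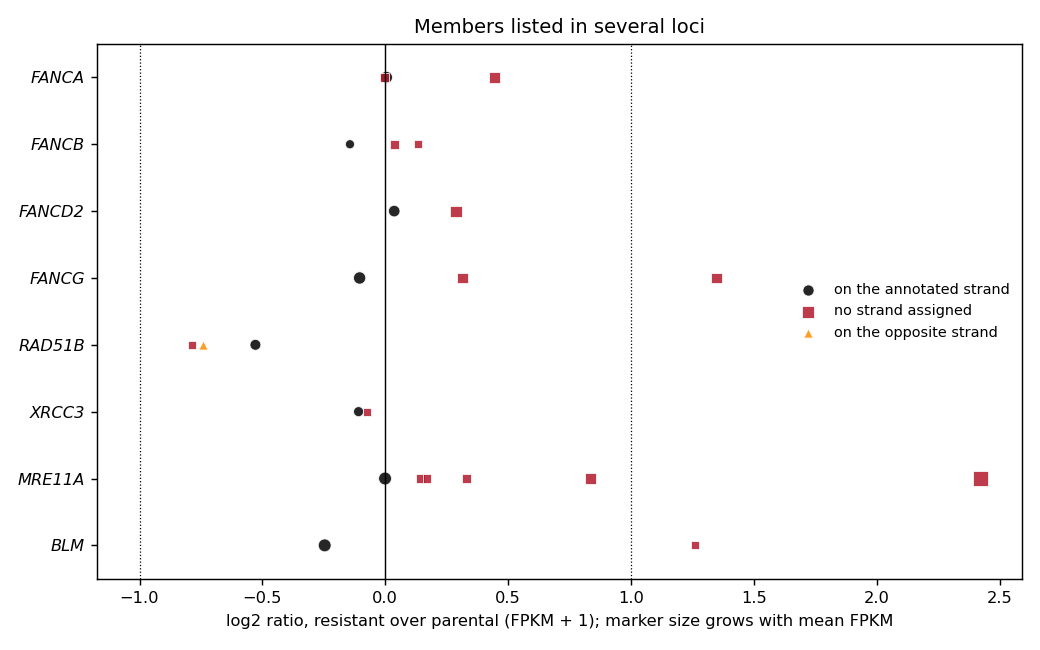
Log2 ratio, resistant over parental, of every locus of the 8 members listed in several loci, with strand-assigned loci as circles, loci without strand as squares and the locus on the opposite strand as a triangle; marker size grows with mean FPKM. Strand-assigned loci lie between -0.53 and 0.04, and single strandless loci of MRE11A, FANCG and BLM lie past 1.

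The rest of the pathway was described by lists, beside all genes compared, of which 55.6% were below 0 with a median of -0.04. Of 15 other crosslink repair genes compared, 9 were above 0 and the median was 0.03; ERCC1, part of the nuclease that unhooks crosslinks, was the 1 past 1.5-fold, at 40.2 FPKM in resistant and 63.4 FPKM in parental cells (-0.64). Of 36 other recombination genes, 28 were below 0 (77.8%) and the median was -0.11. MCM9, a helicase used in recombination, had 9.14 FPKM in resistant and 16.0 FPKM in parental cells (-0.74), and DMC1, the meiotic recombinase, had 7.99 and 12.5 FPKM (-0.59). In the BRCA1-A complex and chromatin response, 8 of 14 genes were below 0 with a median of -0.03, and ABRAXAS1, the scaffold of that complex (FAM175A in the table), had 7.13 FPKM in resistant and 4.34 FPKM in parental cells (0.61). Of 14 other bypass genes, 12 were below 0 with a median of -0.14, none past 1.5-fold.

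Recombination genes are known to be transcribed mostly in dividing cells, so proliferation markers were set beside them. Of 30 such markers 23 were below 0 (76.7%), where 55.6% of all genes compared were. The median was -0.13 and the range -0.38 to 0.30, with none past 1.5-fold. As examples, MKI67 had 80.2 FPKM in resistant and 80.8 FPKM in parental cells (-0.01), and MCM5 had 67.2 and 87.3 FPKM (-0.37). The other 7 markers were above 0, with CCNE1 the highest at 14.0 FPKM in resistant and 11.2 FPKM in parental cells (0.30). The medians of these markers and of the recombination genes were thus both below 0, as was that of all genes (-0.04). The part of proliferation in the members' ratios was not tested. In bulk RNA, fewer cells that express a gene and less RNA per cell cannot be told apart.

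**Figure D4:**
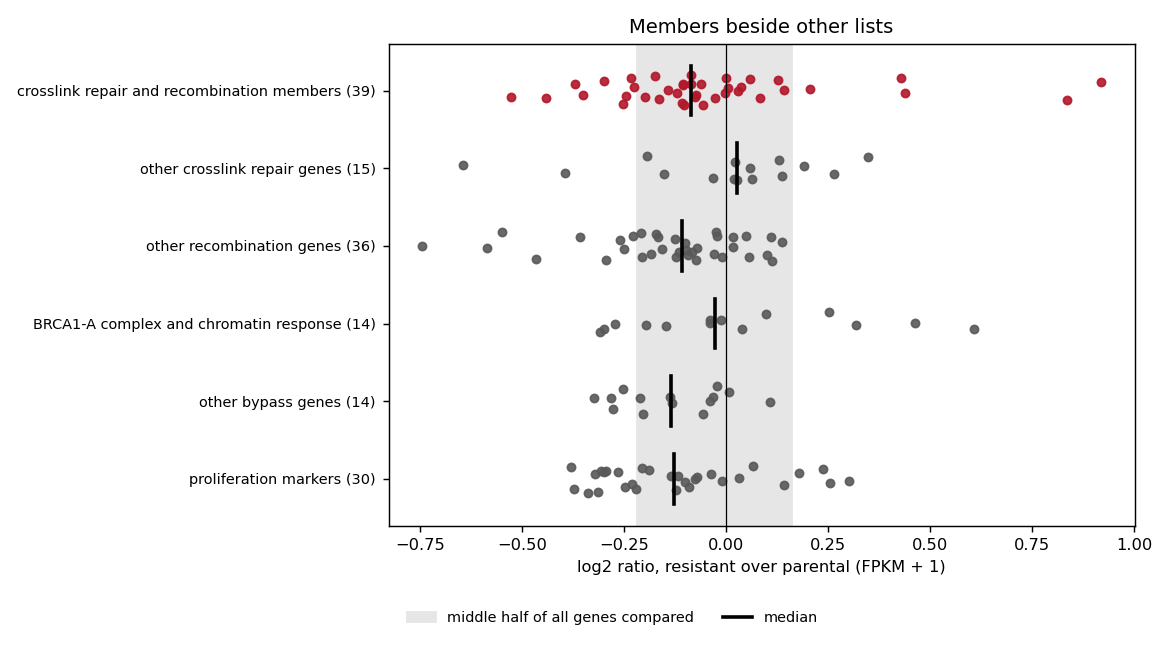
Log2 ratios, resistant over parental, at strand-assigned loci for 39 members and for 5 further lists, with list sizes in brackets, a bar at each median and the range between quartiles of all genes compared in grey. The members' median of -0.09 lies between those of the other crosslink repair genes (0.03) and the other bypass genes (-0.14), and FANCF and BARD1 lie to the right of all other points.

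Markers of the labelled cell type were present in part. YAP1, a subtype factor of small cell lung cancer, had 84.7 FPKM in resistant and 76.6 FPKM in parental cells, and NEUROD1 and POU2F3 were not analysed here. Of 8 neuroendocrine markers 5 were compared. UCHL1 (259 and 251 FPKM) and SYP (8.62 and 8.56 FPKM) were near level, SCG2 had 20.1 and 109 FPKM, and CHGB and NCAM1 were under 2 FPKM in both. Of other cell types, the 1 haematopoietic marker of 5 that was compared, HBB, had 0.472 FPKM in resistant and 2.69 FPKM in parental cells, and 0 of 4 endothelial markers were compared. Of 6 fibroblast markers 3 were compared, with a summed level of 33.2 FPKM in resistant and 74.3 FPKM in parental cells, a gap that lay mostly in PDGFRA, a growth factor receptor (10.1 and 48.0 FPKM, log2 ratio -2.14). THY1 had -0.30 and COL1A1 had 0.54. Of 5 epithelial markers 2 were compared, with a summed level of 7.17 FPKM in resistant and 2.63 FPKM in parental cells. CDH1 (E-cadherin) had 4.81 and 0.536 FPKM (1.92), and KRT8 had 2.36 and 2.09 FPKM (0.12). Their part in the members' ratios was not tested.

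Position was examined next, after the values had been seen, as a property that the choice of genes by name did not use. The 10 compared genes on either side of each member were taken from GENCODE positions on hg38, fewer at a chromosome end. Several of the lower members had neighbours that were mostly lower as well, where 55.6% of all genes compared were below 0. Others had mixed neighbours. Around RAD51B, the lowest member, 12 of 20 neighbours were below 0 (-0.08), around DCLRE1A 11 of 20 (-0.06) and around SLX4 9 of 20 (0.05). Around BRCA1 (chromosome 17, 43044295 to 43170245) 16 of 20 neighbours were below 0, with a median of -0.21. NBR2, which starts beside BRCA1 in the opposite direction, had 2.86 FPKM in resistant and 3.62 FPKM in parental cells (-0.26). Around RAD51C 15 of 20 neighbours were below 0 (-0.15), around FANCI 17 of 20 (-0.22) and around BLM 18 of 20 (-0.25). On other chromosomes, 16 of 20 neighbours were below 0 around UBE2T (-0.17) and 15 of 20 around BRCA2 (-0.12). REV3L, itself near level at -0.06, had 15 of 20 neighbours below 0 (-0.18). The median of all genes was -0.20 on chromosome 15 (403 genes) and -0.16 on chromosome 17 (711 genes). RAD51D, also on chromosome 17, had 0.08 beside neighbours at -0.20, among which the RAD51L3-RFFL entry was counted. BRIP1, on chromosome 17 as well, had -0.20 beside neighbours at -0.09. The part of chromosome position in the members' ratios was not tested.

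Around the higher members the medians of the neighbours were near 0, though single neighbours were higher. Around FANCF (chromosome 11, 22622890 to 22625841, minus strand) the median of 20 neighbours was 0.00898, with 10 above and 10 below 0. The nearest compared gene on 1 side, SVIP, an inhibitor of protein degradation at the endoplasmic reticulum that lies 188 kb away (22813799 to 22830299), was higher too, with 23.3 FPKM in resistant and 7.29 FPKM in parental cells (1.55). On the other side PRMT3, at 2114 kb, had 35.7 and 40.0 FPKM (-0.16). Around BARD1 (chromosome 2, 214725646 to 214809711, minus strand) the median was -0.03, and 4 of 20 neighbours were at least 1.5-fold higher, where 7.59% of all genes compared were. Its nearest neighbours SPAG16 (-0.03) and ATIC (-0.23) were not. Medians around POLK (-0.06) and REV1 (-0.05) were also close to 0. Across the 39 members the ratio at the strand-assigned locus and the median of its neighbours had a Pearson correlation of 0.33 and a Spearman correlation of 0.47. This is a description: windows of members that lie close together share genes, and all points share the 2 libraries.

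**Figure D5:**
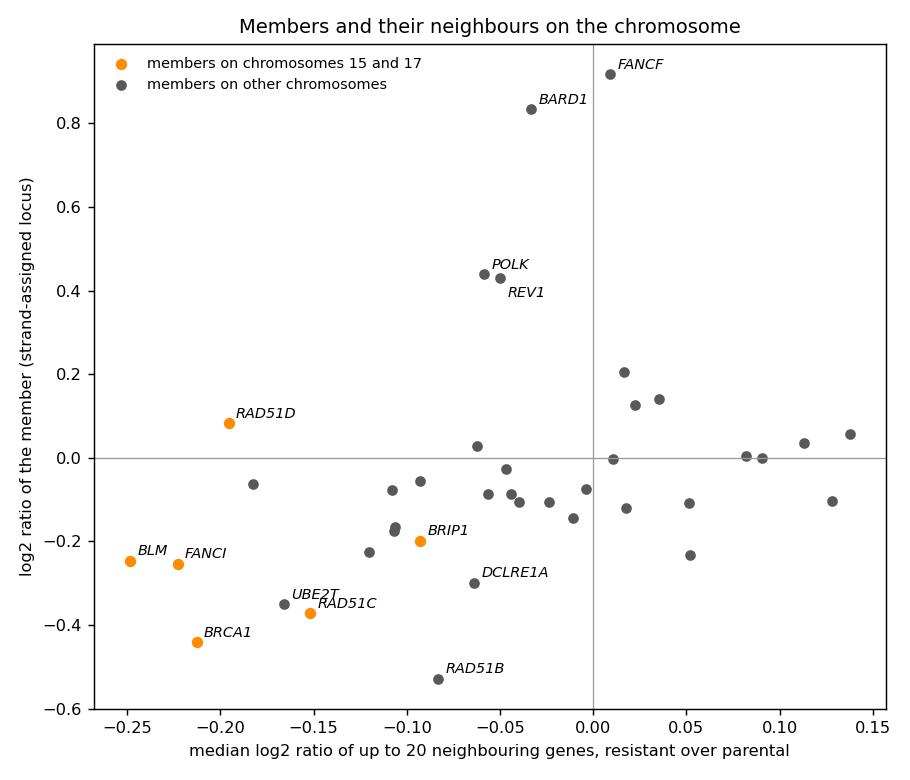
Log2 ratio of each member at its strand-assigned locus against the median log2 ratio of up to 20 neighbouring genes, resistant over parental, with members on chromosomes 15 and 17 in orange. FANCF, BARD1, POLK and REV1 lie high where the median of the neighbours is near 0, while BRCA1, RAD51C, FANCI, BLM and UBE2T lie low beside low neighbours. RAD51B and DCLRE1A lie low beside neighbours with medians of -0.08 and -0.06.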

How the data were processed

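The deposited table gives FPKM, made by the authors, with a column for each library, per the file headers. Libraries were strand-preserving and polyadenylated per the labels' protocols, and TopHat2 (no version) and hg38 are named, per the submitters' processing notes. How FPKM were computed and on which annotation is not given in the sources used here. Loci with no name or a date for a name were dropped, and where a name had several loci the most abundant represented it. Genes reaching 1 FPKM in 1 library or both were compared by the log2 ratio with a pseudocount of 1. FPKM holds no counts, and with 1 library per group size limits replaced tests. Strand was inferred from the order of the loci: 12887 loci fell in a plus or minus part, and 98.7% of 12148 whose gene had a known strand matched it, while 6330 had none. Levels were ranked in 20 bins. Every member is named, and members of other pathway lists past 1.5-fold, with a few proliferation markers as examples. Members and lists were chosen with earlier results of these data known, and the positional comparison, the motifs and the whole-number ratios after values were seen. Counting past 2-fold was tested on simulated data. Some genes of the wider lists are not reported here. RefSeq start regions matched 35 members by symbol. Software was matplotlib 3.10.9, SciPy 1.17.1, NumPy 2.4.6 and pandas 2.3.3 under Python 3.11.15.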

Additional observations from a re-analysis of the deposited data

How the results depend on the processing

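The settings tried were a pseudocount of 0.1 or 5, a filter at 5 FPKM or none, scaling by equal sums or by the median ratio, summed loci of a name, and strand-assigned loci only. The members' median lay between -0.16 and -0.05 in all 8, and the count below 0 between 24 and 30. The values of all genes compared moved in the same direction with scaling. Their median was -0.116 with an equal sum and 0.000322 with the median ratio. With an equal sum 66.05% of all genes and 76.9% of members were below 0. With the median ratio the shares were 49.96% and 61.5%. With strand-assigned loci only, 0 members were at least 2-fold higher, since MRE11A had -0.00083, where 2.84% of all genes were. RAD51B made the count at least 1.5-fold lower 1 (2.56% of members) with an equal sum, against 7.92% of all genes. The count was also 1 with summed loci (RAD51B at -0.71), against 6.63% of all genes. With a pseudocount of 5, 3 members (7.69%) were at least 1.5-fold higher, against 3.56% of all genes. The median of nucleases was -0.014 without a filter, which added EME1, and that of RAD54 motors was -0.032 with an equal sum. FANCF ranged from 0.73 to 0.98 and BARD1 from 0.71 to 0.87, both lowest with a pseudocount of 5. Summed loci gave FANCG 0.34 (against -0.10), FANCD2 0.16 (0.04), FANCA 0.14 (0.00486), FANCB -0.02 (-0.14), BLM -0.10 (-0.25) and MRE11A 1.37 (2.42). RAD51B had -0.37 with a pseudocount of 5. No paired analysis was possible because each group had 1 library. Depth is unknown, so differences between members within the spread of genes of like level could not be judged.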
